A study of Sus scrofa with 20 samples.

Results

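The fibroblast growth factor (FGF) genes described here encode the hormone FGF21, the paracrine growth factors FGF1, FGF2, FGF7 and FGF10, the 4 tyrosine kinase receptors FGFR1, FGFR2, FGFR3 and FGFR4, and the co-receptor beta-Klotho (KLB). They were chosen by symbol, 10 genes in all, and matched to pig Ensembl identifiers. Of the 10, 9 were matched to a row among the 31907 genes of the count table and all 9 passed the filter on low counts. FGF7 was not analysed here. The samples were bulk backfat, the subcutaneous fat of the back, and bulk liver of 5 Nanchukmacdon boars, a Korean pig breed. The labels mark all samples as WT and give all animals an age of 22 months and a normal disease state and name no treatment, so tissue was the only labelled difference between the groups. RNA was sequenced from both tissues of each boar, which gave 5 backfat and 5 liver libraries, named here by boar number (65, 67, 69, 71 and 72). The comparison asks how the expression of these genes differed between fat and liver.

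FGFs reach their receptors in 2 ways. The paracrine members bind heparan sulphate at the cell surface, stay close to the cell that secretes them and activate receptors locally, whereas the endocrine members FGF19, FGF21 and FGF23 bind heparan sulphate weakly, circulate in blood and need a Klotho protein beside the receptor. FGF21 is made mainly in liver, and fat is a main target, where it acts on FGFR1 with KLB. FGF19 comes from the gut and acts on liver through FGFR4 with KLB, where it represses the synthesis of bile acids.

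The libraries held between 43820042 and 61772737 counts, and 16275 genes were tested. Levels are given as CPM (counts scaled to a common library total) after TMM scaling, which corrects each library for its composition, and as FPKM, the same value per kilobase of counted exons, wherever genes are compared with each other. Sums of marker genes are the exception and are given throughout as CPM without TMM. Mitochondrial genes took between 6.38% and 20.2% of the counts in 9 libraries and 44.5% in liver 67. The tissue labels fitted their markers: the 9 hepatocyte markers summed to between 215 and 738 CPM in backfat and between 25440 and 91890 CPM in liver, with the lowest liver value in liver 67 and the other livers at 79440 CPM or more. The 6 adipocyte markers summed to between 14610 and 20570 CPM in backfat and to between 7.18 and 8.79 CPM in liver, where ADIPOQ, LEP and LPL were at 0 in at least 1 library. A gene was called where its FDR (Benjamini-Hochberg adjusted p over all genes tested) was 0.05 or less and its log2 fold change was 2 or more in size, and positive values are higher in backfat. By this rule 11.1% of the genes tested were called higher in backfat and 11.2% higher in liver. Scaling by library size alone moved the median log2 fold change from 0.00014 to 0.71 over all genes and the numbers called from 1814 in backfat and 1819 in liver to 2874 and 1340. In bulk tissue, fewer cells of a type and less RNA per cell cannot be told apart.

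The receptor genes FGFR3 and FGFR4 and the hormone gene FGF21 were all called higher in liver, and the sequences before their annotated starts are shown because they differ in make-up. Each is the 250 bases before the first RefSeq start of the gene in Sscrofa11.1, 5′ to 3′ on the strand of the gene, with each CG dinucleotide (CpG, the site of most DNA methylation) in capitals. The window of FGFR3 lies on the plus strand at chr8:878901-879150, that of FGFR4 on the minus strand at chr2:80853792-80854041 and that of FGF21 on the plus strand at chr6:54082403-54082652.
FGFR3: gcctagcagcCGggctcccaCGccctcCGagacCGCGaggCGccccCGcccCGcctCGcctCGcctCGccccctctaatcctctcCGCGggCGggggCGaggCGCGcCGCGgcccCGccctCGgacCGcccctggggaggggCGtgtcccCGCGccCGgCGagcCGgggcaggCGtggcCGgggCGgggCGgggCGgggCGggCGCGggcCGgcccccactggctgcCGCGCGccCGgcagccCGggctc
FGFR4: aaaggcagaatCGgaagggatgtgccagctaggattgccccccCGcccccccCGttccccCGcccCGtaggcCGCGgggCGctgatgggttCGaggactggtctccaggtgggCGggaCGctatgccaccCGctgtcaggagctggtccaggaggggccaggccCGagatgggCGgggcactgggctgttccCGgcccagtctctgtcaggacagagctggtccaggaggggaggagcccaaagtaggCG
FGF21: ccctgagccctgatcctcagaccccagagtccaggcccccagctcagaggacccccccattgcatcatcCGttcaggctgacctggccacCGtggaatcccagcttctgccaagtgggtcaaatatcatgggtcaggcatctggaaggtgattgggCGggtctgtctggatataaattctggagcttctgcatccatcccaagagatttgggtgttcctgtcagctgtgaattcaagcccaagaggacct

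The FGFR3 window held 42 CpG sites, more than 97.4% of the 19484 promoter windows of the same length in the annotation. The FGFR4 window held 16 and the FGF21 window 3, against a median of 12 over all windows. The 3 genes called higher in liver thus ranged from CpG-poor to CpG-dense starts, and FGFR2, which was not called, had 11 CpG sites. The growth factor genes FGF1, FGF2 and FGF10 had 5, 6 and 3, and KLB and FGF7 had 1 each, fewer than 90.3% of windows. The windows described are those of FGF7, for which no counts were analysed, and of the tested genes other than FGFR1. The GC box GGGCGG, searched on both strands, occurred 8 times before FGFR3, 4 times before FGFR4 and once before FGF21, and was present in 46.0% of all windows. The TATA motif TATAAA occurred 2 times before FGF7 and once each before FGF21 and KLB, and in 9.64% of all windows. AGGTCA, the core element bound by nuclear receptors, occurred once each before FGF21 and FGF1 and in 12.2% of all windows, and the E-box CACGTG was found in none of the windows described here and in 6.40% of all windows. None of these motifs contains another. The matches describe letters only, and the annotated starts need not be those used in these tissues.

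**Figure D1:**
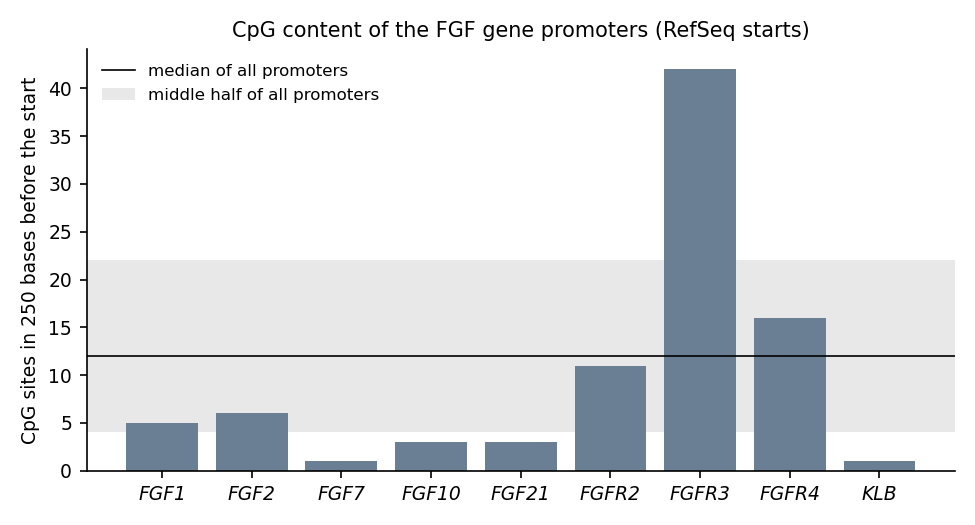
CpG sites in the 250 bases before the annotated start of FGF7 and of the tested FGF genes other than FGFR1 (bars, number of sites), with the median of all 19484 promoter windows as a line and a grey band for the middle of them, from 4 to 22 sites. FGFR3 (42) stands far above the median of 12, and KLB and FGF7 hold 1 each.

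Of the 9 genes, 3 were called higher in backfat (FGF2, FGF10 and FGFR1) and 3 higher in liver (FGF21, FGFR3 and FGFR4). The shares over all genes tested were 11.1% and 11.2%. FGFR2 and KLB passed the FDR threshold with smaller differences, both higher in backfat, and FGF1 passed neither threshold. The values of the 2 tissues did not overlap for 8 of the 9, against 42.6% of all genes tested. The median size of the log2 fold change was 3.10 over the 9 genes and 0.81 over all genes tested, and the genes were split between the directions, with a median of 0.62. All 6 calls were kept in every alternative processing in which the gene was tested, and no direction reversed.

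**Figure D2:**
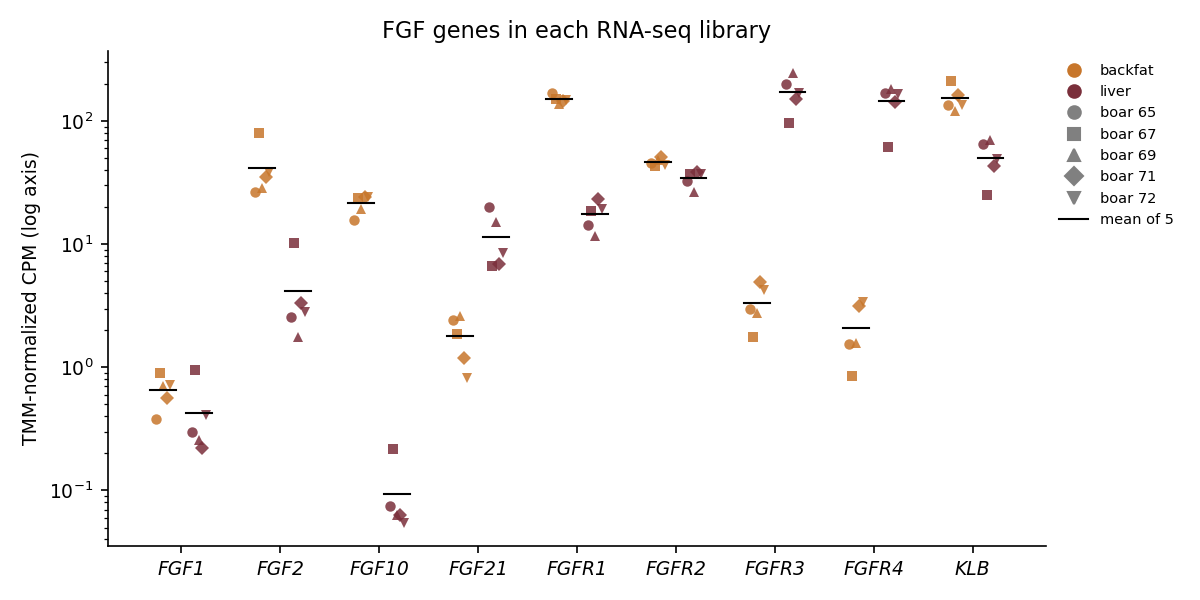
Level of each FGF gene in each library, in TMM CPM on a log axis, with a mark shape for each boar, a colour for each tissue and a bar at each mean of 5 libraries. FGF2, FGF10 and FGFR1 lie higher in backfat, FGF21, FGFR3 and FGFR4 higher in liver, and only FGF1 has overlapping tissues.

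FGF10, a growth factor of the mesenchyme that acts on the epithelial form of FGFR2 and has a role in the development of fat, was found mainly in backfat. Its levels in backfat, given here and below in the order of boars 65, 67, 69, 71 and 72, were 15.8, 23.8, 19.4, 24.1 and 24.2 CPM, and in liver they were 0.0748, 0.216, 0.0637, 0.0632 and 0.0543 CPM. The liver values rested on 3, 8, 3, 2 and 2 counts, against 6856 counts over the backfat libraries. The highest liver library was thus far below the lowest backfat library. The mean was 21.4 ± 3.76 CPM (SD, n = 5) in backfat and 0.0944 ± 0.0684 CPM (n = 5) in liver, and the log2 fold change was 7.80 (SE 0.36, edgeR FDR 7.84e-09). From the summed counts the ratio was 224 (exact 95% interval 142 to 379, counting error only). Only 3.01% of the genes tested had a difference as large in either direction. The gene lies on the minus strand at chr16:28695465-28779953 and has 3 exons.

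FGF2, basic FGF, which is a mitogen of fibroblasts, endothelium and fat cell precursors, was also higher in backfat. It had 26.4, 79.3, 28.6, 34.9 and 38.7 CPM in backfat and 2.54, 10.3, 1.76, 3.32 and 2.82 CPM in liver. Boar 67 had the highest value in both tissues, standing apart from the other 4 in each, and the tissues did not overlap. Means were 41.6 ± 21.7 CPM (SD, n = 5) and 4.15 ± 3.48 CPM (n = 5), with a log2 fold change of 3.33 (SE 0.50, edgeR FDR 0.000109). The ratio within a boar was stable by comparison, with log2 ratios between 2.95 in boar 67 and 4.02 in boar 69. Without backfat 67 the log2 fold change was 2.97 and without liver 67 it was 3.97, and both were called. FGF2 spans chr8:101278877-101344084 on the minus strand, and 1014 of its exon bases overlap exons of NUDT6, a nudix hydrolase gene on the other strand. The counting did not use strand, so reads from the overlap cannot be assigned with certainty. NUDT6 itself had 5.65 ± 0.418 CPM in backfat and 4.43 ± 1.50 CPM in liver (SD, n = 5 each), ranges that overlap.

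FGF1, acidic FGF, which binds all 4 receptors and in mouse fat is needed for the tissue to remodel under a rich diet, was low in both tissues. Backfat had 0.384, 0.900, 0.707, 0.559 and 0.721 CPM and liver 0.299, 0.945, 0.255, 0.221 and 0.407 CPM. The tissues overlapped, with liver 67 above every backfat library and liver 72 above backfat 65, and backfat was the higher tissue in 4 of 5 boars. The log2 fold change was 0.62 (SE 0.45, 95% interval -0.36 to 1.60, edgeR FDR 0.267). Without liver 67 it was 1.10 with an edgeR FDR of 0.0249, and with library size alone it was 1.35 (FDR 0.0184), so its side of the FDR threshold depended on that library and on the scaling, while its size was never enough for a call.

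Liver 67 had the highest level of all 3 growth factors among the livers, with or without TMM. In the same library the sum of the fibroblast and adipose stroma markers (5 of 6 with an identifier) was 619 CPM without TMM. This was little above liver 71 (598 CPM) and liver 72 (584 CPM), in a liver range of 337 to 619 CPM. The TMM factors were 0.722 in liver 67, 0.649 in liver 71 and 0.760 in liver 72, so the order of these libraries depends on the scaling. All livers were far below the 30290 to 58650 CPM of backfat. Its 3 measured skeletal muscle markers summed to 114 CPM, against 0.246 to 1.12 CPM in the other livers, its 4 red cell markers to 1315 CPM, against 63.7 to 291 CPM, and its hepatocyte sum was the lowest. Its 4 smooth muscle markers summed to 213 CPM, against 92.2 to 127 CPM in the other livers, and its bile duct markers (4 of 5 with an identifier) to 52.4 CPM, against 22.9 to 33.1 CPM. Adipocyte markers were not raised there, at 7.79 CPM. The part of these differences in the growth factor levels was not tested.

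FGF21, the fasting and stress hormone of the family, was higher in liver. Backfat had 2.43, 1.88, 2.59, 1.19 and 0.823 CPM and liver 19.9, 6.62, 15.2, 6.89 and 8.49 CPM. The lowest liver value, in boar 67, was above the highest backfat value, in boar 69, and both tissues varied about as much, by 3.15-fold in backfat and 3.02-fold in liver. Means were 1.78 ± 0.766 CPM (SD, n = 5) in backfat and 11.4 ± 5.90 CPM (n = 5) in liver, with a log2 fold change of -2.68 (SE 0.41, edgeR FDR 0.000139). Within boars the log2 ratio lay between -3.37 in boar 72 and -1.82 in boar 67. The call was close to the limit of size with library size alone, at -2.02, and leave-one-out values lay between -2.86 and -2.37. FGF21 is a compact gene on the plus strand at chr6:54082653-54084532, with 3 exons.

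The 4 receptors divided between the tissues. FGFR1, the receptor through which FGF21 acts on fat cells, had 169, 151, 136, 144 and 148 CPM in backfat and 14.4, 18.5, 11.7, 23.3 and 19.3 CPM in liver. Backfat libraries lay close together, within 1.24-fold, and all were far above the livers. Means were 149.8 ± 12.2 CPM (SD, n = 5) and 17.5 ± 4.50 CPM (n = 5), and the log2 fold change of 3.10 (SE 0.20, edgeR FDR 9.79e-08) varied between 2.98 and 3.20 when libraries were left out in turn. FGFR1 spans chr15:48053895-48106634 on the plus strand.

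FGFR4, the hepatocyte receptor of the bile acid axis, had the larger difference of the 2 liver receptors. Its levels were 1.53, 0.854, 1.56, 3.15 and 3.36 CPM in backfat and 169, 61.1, 181, 144 and 167 CPM in liver. The lowest liver library, 67, was still many times above every backfat library. Means were 2.09 ± 1.10 CPM (SD, n = 5) and 144.4 ± 48.5 CPM (n = 5), and the log2 fold change was -6.11 (SE 0.46, edgeR FDR 3.06e-07), a size reached by 4.98% of the genes tested. FGFR4 lies on the minus strand at chr2:80841536-80853791 with 18 exons.

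FGFR3, best known as a brake on bone growth and also a receptor of several FGFs in epithelia, followed FGFR4. It had 3.0, 1.75, 2.76, 4.92 and 4.25 CPM in backfat and 199.9, 95.7, 244, 150.3 and 168 CPM in liver. Boar 67 was lowest in both tissues and the tissues did not overlap. Means were 3.34 ± 1.26 CPM (SD, n = 5) and 171.6 ± 55.4 CPM (n = 5), with a log2 fold change of -5.69 (SE 0.36, edgeR FDR 7.41e-08). FGFR3 spans chr8:879151-894968 on the plus strand, with 11 RefSeq transcripts from 8 starts. In backfat both genes were lowest in boar 67 and highest in boars 71 and 72, whereas the hepatocyte markers of backfat were highest in boar 69 (738 CPM) and lowest in boar 72 (215 CPM), with APOC3 and CPS1 at 0 in at least 1 backfat library.

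FGFR2, whose epithelial form binds FGF7 and FGF10, differed least of the receptors. Backfat had 45.8, 43.1, 48.4, 50.9 and 44.2 CPM and liver 32.4, 36.8, 26.3, 38.9 and 37.0 CPM. Every backfat value was above every liver value, and backfat was higher in 5 of 5 boars. The log2 fold change was 0.44 (SE 0.14, 95% interval 0.13 to 0.75, edgeR FDR 0.0195), an effect passed in size by 69.2% of all genes tested, and it was 1.17 with library size alone. The share of genes tested that passed the FDR threshold at any size was 28.0% higher in backfat and 27.0% higher in liver, 55.0% in all. Counts per gene do not separate the epithelial from the mesenchymal form of FGFR2.

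KLB, the co-receptor for FGF21 and FGF19, was high in both tissues and higher in backfat. It had 135.7, 209.7, 121, 164 and 134.5 CPM in backfat and 64.6, 25.2, 69.7, 43.3 and 49.5 CPM in liver. The tissues did not overlap, and boar 67 had both the highest backfat and the lowest liver value. Means were 152.9 ± 35.4 CPM (SD, n = 5) and 50.5 ± 17.8 CPM (n = 5), and the log2 fold change of 1.60 (SE 0.27, 95% interval 1.02 to 2.18, edgeR FDR 0.000269) was below the limit of size. The log2 ratio within boars lay between 0.79 in boar 69 and 3.06 in boar 67, a wide spread for a gene higher in backfat in 5 of 5 boars. Without liver 67 the log2 fold change was 1.40, and with library size alone it was 2.28 and passed both thresholds. KLB lies on the plus strand at chr8:30653434-30696123 with 5 exons, and 133 of its exon bases overlap the ribosomal protein gene RPL9 on the other strand, where reads are likewise uncertain.

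**Figure D3:**
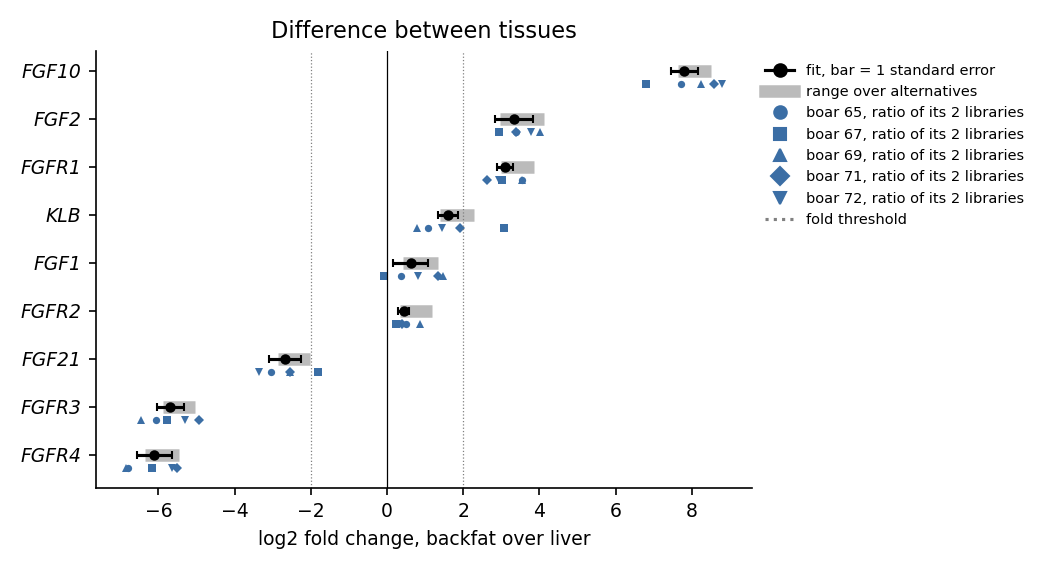
Log2 fold change (backfat over liver) of each FGF gene from the edgeR fit, with black bars of 1 SE, grey bars for the range over the alternatives, blue marks for the ratio within each boar and dotted lines at the limits of size of 2 in each direction. Backfat-higher genes reach 7.80 (FGF10) and liver-higher genes -6.11 (FGFR4), and KLB and FGFR2 lie above 0 but under the limit.

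Per kilobase of counted exons, FGFR1 led in backfat at 36.1 ± 2.94 FPKM (SD, n = 5), followed by KLB at 25.7 ± 5.96 FPKM. Their ranges overlapped, although FGFR1 was above KLB in 5 of 5 libraries. FGFR2 (8.54 ± 0.588 FPKM), FGF2 (6.46 ± 3.36 FPKM) and FGF10 (5.34 ± 0.937 FPKM) came next, each overlapping its neighbour, and none overlapped KLB above. FGF21, FGFR3 and FGFR4 lay together between 0.218 and 0.935 FPKM and were not separated from each other, and FGF1 was lowest at 0.143 ± 0.0423 FPKM, below every FGFR4 value.

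In liver the order was headed by FGFR4 (36.9 ± 12.4 FPKM) and FGFR3 (30.7 ± 9.92 FPKM), which overlapped, with FGFR4 above FGFR3 in 4 of 5 libraries. KLB (8.49 ± 2.99 FPKM), FGFR2 (6.30 ± 0.926 FPKM), FGFR1 (4.20 ± 1.08 FPKM) and FGF21 (4.13 ± 2.13 FPKM) followed, each overlapping the next. FGF2 (0.644 ± 0.541 FPKM), FGF1 (0.0930 ± 0.0653 FPKM) and FGF10 (0.0235 ± 0.0170 FPKM) were at the bottom. The place of FGF21 depended on its length. The count table gives it 2772 bases and the RefSeq transcript 786. With RefSeq lengths its mean was 14.6 FPKM in liver and 2.27 FPKM in backfat. In liver this mean was above those of FGFR2 and KLB. Its liver range of 8.42 to 25.4 FPKM still overlapped theirs (9.96 to 14.7 and 4.05 to 11.2 FPKM). In backfat its rank by mean stayed the same. Its backfat range of 1.05 to 3.30 FPKM then overlapped that of FGF10 (2.45 to 3.76 FPKM), and that of FGFR3 (0.415 to 1.16 FPKM) only at its lower end. For FGFR2 the longest RefSeq transcript has 2645 bases, against 5442 in the table, which moved its mean from 8.54 to 17.6 FPKM in backfat.

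The receptor make-up was set out as the share of each receptor in the summed FPKM of FGFR1 to FGFR4, a description without a test. FGFR1 held 78.8% ± 2.44 of the sum in backfat (SD, n = 5) and FGFR2 18.7% ± 1.82, leaving 1.31% ± 0.490 for FGFR3 and 1.17% ± 0.620 for FGFR4. In liver FGFR4 held 46.1% ± 6.05, FGFR3 39.0% ± 3.87, FGFR2 8.90% ± 3.98 and FGFR1 5.97% ± 2.88. The liver shares of FGFR1 ranged from 2.89% to 10.1% and never reached those of backfat, which were 75.9% or more. The summed receptor level itself was 45.7 ± 2.73 FPKM in backfat and 78.1 ± 20.6 FPKM in liver, and the tissues overlapped through liver 67, at 44.0 FPKM. Liver 67 also had the lowest FGFR4 share, 35.5%, and the highest shares of FGFR1 (10.1%) and FGFR2 (15.4%). With the longest RefSeq transcripts as lengths, FGFR1 held 70.5% and FGFR2 27.2% in backfat, and FGFR2 13.6% in liver.

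**Figure D4:**
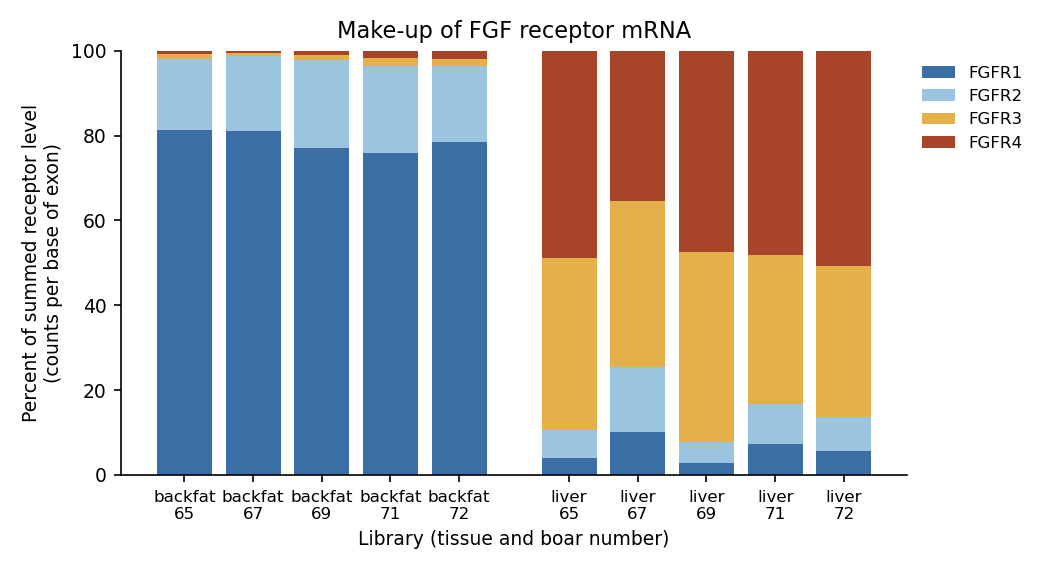
Share of each receptor, in percent, in the summed FPKM of FGFR1 to FGFR4 in each library, as stacked bars from 0. FGFR1 takes 75.9% to 81.3% in backfat, whereas FGFR4 and FGFR3 together make up most of the sum in every liver library.

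KLB was set against the receptor with which it acts in each tissue. In liver the ratio of KLB to FGFR4, per length, lay between 0.195 and 0.271, a 1.39-fold range, while KLB varied 2.77-fold and FGFR4 2.97-fold between the same libraries. In backfat the ratio of KLB to FGFR1 lay between 0.561 in boar 65 and 0.970 in boar 67. KLB was thus below its partner in every library of both tissues.

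After TMM, the liver libraries took the same order for 3 members. FGFR3, FGFR4 and KLB were each highest in boar 69, followed by boars 65, 72, 71 and 67, which is the reverse of the order of the mitochondrial share of counts (6.38%, 6.97%, 11.9%, 20.2% and 44.5%). The hepatocyte markers, summed without TMM, took the order 69, 72, 65, 71 and 67. FGF21 differed from the order of the receptors only in having boar 65 above boar 69, and CYP7A1, the rate-limiting enzyme of bile acid synthesis, followed the order of FGF21. FGF2 had the opposite order, highest in boar 67 and lowest in boar 69, as did PPARGC1A, a coactivator of the fasting response. PPARA followed neither, with the order 69, 65, 67, 72 and 71. FGFR1 and FGFR2 shared another order, 71, 72, 67, 65 and 69. Without TMM, FGFR1, FGFR3, FGFR4 and KLB kept their orders but FGFR2 took the order 65, 72, 67, 71 and 69. FGF2 then took the order 67, 65, 71, 72 and 69, no longer the full reverse, and FGF21 the order 65, 69, 72, 67 and 71. Orders without TMM are not given here for CYP7A1, PPARGC1A and PPARA. The part of the mitochondrial share and of the hepatocyte markers in these orders was not tested, and with mitochondrial genes removed from the counts the calls of the 9 genes were the same.

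**Figure D5:**
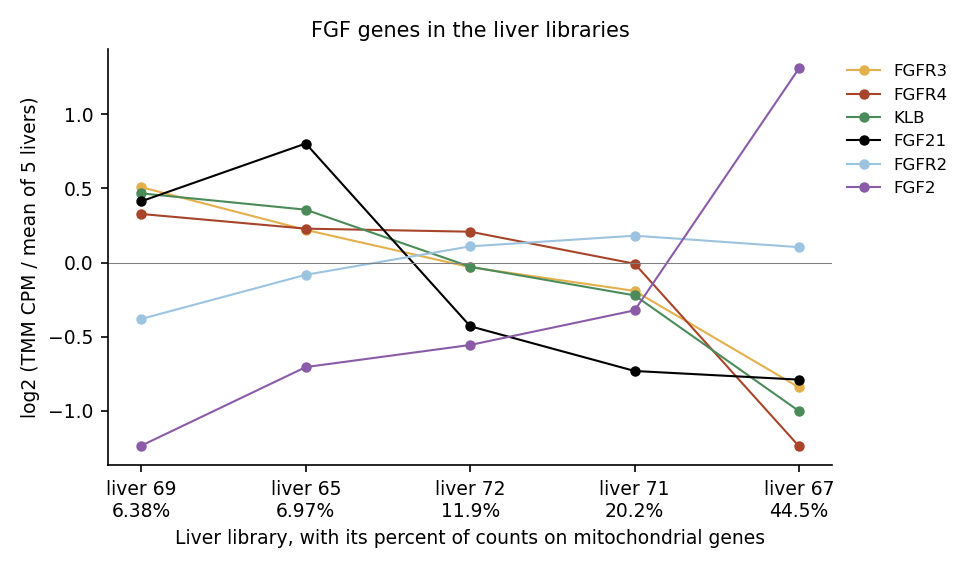
Level of 6 FGF genes in the 5 liver libraries, as log2 of TMM CPM over the mean of the livers, with libraries in the order of their mitochondrial percent of counts. FGFR3, FGFR4 and KLB fall from liver 69 to liver 67, and FGF2 takes the reverse order.

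The wider pathway was described with a list of 92 other genes, of which 82 had an identifier and 73 were tested. Of these, 12 (16.4%) were called higher in backfat and 14 (19.2%) higher in liver, against 11.1% and 11.2% of all genes tested. Among the other ligands, FGF18, a growth factor of bone and cartilage, was called higher in backfat, with 3.69 to 16.6 CPM there and 0 to 0.864 CPM in liver (log2 fold change 5.05, SE 0.90, edgeR FDR 0.000424). FGF19, the gut hormone that acts through FGFR4 and KLB, had 1 count over all 10 libraries and was not tested. FGF23 and KL were not analysed here. Of the FGF homologous factors, which stay inside the cell and modulate sodium channels, FGF12 was called higher in backfat (1.24 to 5.28 CPM against 0 to 0.0814 CPM in liver, log2 fold change 5.90). Among co-receptors and binding proteins FGFBP3, a secreted carrier of FGFs, was called higher in liver (log2 fold change -2.59), but not with library size alone (-1.91).

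Heparan sulphate proteoglycans, which hold paracrine FGFs at the cell surface and in the matrix, were divided between the tissues. Of 11 core proteins tested, 3 were called higher in backfat and 2 higher in liver, against 11.1% and 11.2% of all genes tested. Those higher in backfat were GPC6 (log2 fold change 3.98), GPC1 (3.86) and perlecan, HSPG2 (2.81). Those higher in liver were SDC1 (-3.43) and SDC2 (-2.24), of which SDC2 was not called with library size alone (-1.55). HSPG2 ranged from 1243 to 1524 CPM in backfat and from 128 to 303 CPM in liver, and SDC1 from 8.97 to 25.6 CPM and from 123 to 218 CPM. Of 11 enzymes of heparan sulphate, 2 passed the FDR threshold higher in backfat and 7 higher in liver, against 28.0% and 27.0% of all genes tested. HS6ST2, a 6-O-sulphotransferase, had 231 counts in backfat and 0 in every liver library. This was at least 45.3-fold higher in backfat when 3 counts over the group are taken as the most that 0 allows. Its backfat level was low, at 0.292 to 1.03 CPM. HS6ST1, named after its values were seen, was more abundant and higher in liver, though not called. It had 24.4 to 48.2 CPM in backfat and 37.9 to 172 CPM in liver (log2 fold change -1.64, edgeR FDR 0.00112). Heparanase, HPSE, which cuts the chains, was called higher in liver (log2 fold change -2.68), but not with library size alone (-1.99).

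None of 12 signal proteins next to the receptor, such as FRS2, GRB2 and SOS1, was called in either direction by edgeR with TMM, DESeq2 or limma-voom. With edgeR and TMM 22.3% of all genes tested were called in either direction. With library size alone GAB1 was called higher in backfat at a log2 fold change of 2.20. With edgeR and TMM 4 of the signal proteins had an unadjusted p under 0.05 and 3 passed the FDR threshold. These were the adaptor GAB1 (log2 fold change 1.43), PLCG1 (1.17) and CBL (1.17), all higher in backfat and named after their values were seen. Over all genes tested 28.0% passed the FDR threshold higher in backfat and 27.0% higher in liver. The number of signal proteins passing the FDR threshold was 8 with library size alone and 6 without liver 67. Among 11 feedback inhibitors of FGF signalling, 4 were called higher in backfat and 1 higher in liver, against 11.1% and 11.2% of all genes tested. IL17RD, known as Sef, had a log2 fold change of 3.65, the phosphatase DUSP4 3.54 and the Sprouty gene SPRY2 2.82. SPRY2 had 34.7 to 48.7 CPM in backfat and 5.45 to 7.18 CPM in liver. SPRY3 was called higher in liver (-2.17) but had a log2 fold change of -1.89 with the boar as a replicate block and lost the call there, with limma-voom (-1.90) and without backfat 67 (-1.90), liver 65 (-1.86) or liver 69 (-1.66). Of 6 target transcription factors FOS was called higher in backfat (log2 fold change 2.68), with 71.7 to 329 CPM there and 15.8 to 39.5 CPM in liver. EGR1 (1.49) and MYC (0.98) passed only the FDR threshold higher in backfat, and ETV5 (-1.57) and ETV4 (-1.47) did so higher in liver. These further genes were named after their values were seen.

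Regulators of FGF21 were divided. PPARG, the master regulator of fat cells, was called higher in backfat (log2 fold change 7.78, 118 to 202 CPM against 0.191 to 1.67 CPM). PPARGC1A (-5.47) and PPARA (-2.08), which drives hepatic FGF21 in fasting, were called higher in liver, the latter with overlapping tissues, at 3.83 to 10.4 CPM in backfat and 7.30 to 46.7 CPM in liver. With the boar as a replicate block PPARA had a log2 fold change of -1.89 and was not called, as it was not with limma-voom (-1.89) or without backfat 69 (-1.99), backfat 72 (-1.95), liver 65 (-1.93) or liver 69 (-1.71). MLXIPL, the carbohydrate response factor ChREBP, had 108 to 345 CPM in backfat and 255 to 544 CPM in liver (log2 fold change -0.80, edgeR FDR 0.0583). All 7 tested genes of the bile acid axis in which FGFR4 and KLB act were called higher in liver, against 11.2% of all genes tested. With library size alone all of them but CYP27A1 were called. ABCB11, the bile salt export pump, had 69232 counts in liver and 17 in backfat, NR1H4, the bile acid receptor FXR, 15213 and 2, a ratio of 12920 (exact 95% interval 3576 to 106700, counting error only), and NR0B2, its target SHP, 3640 and 5. CYP7A1 had 1.82 to 4.56 CPM in backfat and 11.1 to 127 CPM in liver (log2 fold change -4.36, SE 0.64, edgeR FDR 8.98e-05).

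Genes with the most similar pattern were sought for FGF21, FGFR4 and KLB over the 10 libraries, by the root mean square difference of their centred log2 CPM. The closest to FGF21 were SFT2D2 (0.30), the hedgehog-binding protein gene HHIP (0.35) and NDRG2 (0.37). The closest to FGFR4 were ALDH1A1 (0.31), a retinaldehyde dehydrogenase, FGFR3 (0.33) and the tight junction gene TJP3 (0.38), so that FGFR3 came second among all genes with a symbol. Among the closest to KLB were ZFYVE21 (0.19) and the kinase gene YES1 (0.27).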

How the data were processed

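RNA-seq reads were trimmed with Trimmomatic and aligned with HISAT2 by the authors, who then counted them per gene over exons with featureCounts 2.0.1, without strand, on the Ensembl 99 annotation of Sscrofa11.1. The deposited values are raw counts, with a length in bases for each gene. Columns were assigned to a tissue by name and to a boar by the number in the name. The same numbers occur in both tissues and were taken to mark the same animals. Deviations from the tissue means correlated between libraries of the same number at 0.049 to 0.238. Between libraries of different numbers they correlated at -0.225 to 0.131, and these ranges overlap. The pairing rests on the number in the column name alone. Whole-genome bisulfite files hold calls by read position with no genomic position and were not used here.

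Counts were analysed with edgeR 4.0.16 in R 4.3.3. After filterByExpr and TMM scaling, a quasi-likelihood model with a term for tissue alone was fitted to all genes that passed, with Benjamini-Hochberg adjustment over them. DESeq2 1.42.0, limma 3.58.1 (voom), DESeq2's size factors, library size alone, other filters, a boar block, removal of mitochondrial genes and leaving out each library were alternatives. The scripts were tested on simulated data. FPKM is the TMM CPM per kilobase of the length in the table, and lengths of the longest RefSeq transcript were added as an alternative after the data were seen. Promoter windows and gene positions come from RefSeq for Sscrofa11.1. Exact intervals of ratios are binomial. The members, the pathway list and the marker lists were chosen with earlier results of these data known. All members were named, with up to 3 called genes of each pathway group and direction by size of change, 7 further pathway genes whatever their result, and the 3 genes most like FGF21, FGFR4 and KLB. Some items that these rules cover are not reported here.

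Marker sums not given with the results were, in CPM without TMM, 299.6 to 447 in backfat and 107 to 160.4 in liver for hepatic stellate cells, 784 to 1568 and 77.8 to 177 for endothelium, 183 to 363 and 572 to 984 for macrophages, 0.712 to 3.15 and 22.9 to 52.4 for bile duct epithelium, 7.51 to 9.48 and 7.19 to 14.6 for skin, 11.7 to 573 in backfat for skeletal muscle, 399 to 649.5 and 92.2 to 213 for smooth muscle, 0 to 0.598 and 0 to 0.615 for mesothelium, 135.0 to 589.7 in backfat for red cells, and 12.1 to 32.3 and 7.42 to 19.0 for lymphocytes.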

Additional observations from a re-analysis of the deposited data

Results flagged for a closer look

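A library was set apart where its gap to the nearest of the other 4 of its tissue was more than 0.71 of the whole range of the 5. Of 26 groups tested, 5 had such a library, and chance alone flags about 1 in 20 groups. All 5 were from boar 67. In liver 67 FGF1 was at 0.945 CPM, FGF2 at 10.3 CPM and FGF10 at 0.216 CPM, each above the other livers, and the share of FGFR4 among the receptors was 35.5%, below them. In backfat 67 FGF2 was at 79.3 CPM, above the other backfat libraries. The FGF10 value rests on 8 counts.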

How the results depend on the processing

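Of the 9 FGF genes, 3 were called in each direction under every alternative except library size alone, where KLB was added at a log2 fold change of 2.28, and except the filter of at least 10 counts in every library, which left FGF1 and FGF10 untested. With the boar as a replicate block 3 and 3 were called and FGF21 had a log2 fold change of -2.66, and for the pathway list 12 and 12 were called, the block taking away SPRY3 and PPARA, as limma-voom did. The block changed no other call among these genes. Leaving out each library in turn gave 1817 to 2127 genes higher in backfat and 1837 to 1942 higher in liver, and 12 to 14 higher in liver for the pathway list. Over all genes, library size alone gave 2874 higher in backfat, the filter of at least 10 counts in every library gave 871 and 981, and no filter gave 2729 higher in liver. In the pathway list that filter gave 7 higher in backfat, and library size alone gave 18 higher in backfat, with EGR1, FGF11, GAB1, SPRED1, SPRED3 and SULF1 added, and 8 higher in liver, without CYP27A1, FGFBP3, HPSE, PPARA, SDC2 and SPRY3. Without TMM the mean levels in backfat were 27.4 CPM for FGF10, 193.7 CPM for FGFR1, 59.7 CPM for FGFR2 and 197.9 CPM for KLB, and 26.5 CPM for FGFR2 in liver. With the longest RefSeq transcript as length, receptor shares were 70.5% for FGFR1 and 27.2% for FGFR2 in backfat and 13.6% for FGFR2 in liver. The cause was not tested. Depth limits FGF10 in liver, which rests on 18 counts.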
